A study of Mus musculus with 4 samples.

Results

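The 40 genes described here are a set of cell cycle genes, 18 whose products copy DNA and 22 whose products act in mitosis. They were chosen by symbol, each matched exactly 1 row among the 32285 genes of the tables, and all 40 passed the filter on low counts in every comparison below. They were measured in 4 fresh frozen sections of MC38 tumors by Visium spatial transcriptomics, which reads the RNA of a tissue section spot by spot from a slide printed with positional barcodes. MC38 cells, a colon carcinoma line derived from a C57BL/6 mouse, had been injected subcutaneously into F1 females that were 8 to 12 weeks old. The 2 CC075F1 hosts were crosses of C57BL/6J with CC075/UncJ and the 2 CC080F1 hosts crosses of C57BL/6J with CC080/TauUncJ, both Collaborative Cross strains, which are recombinant inbred mice from several founders. The study classes the first host as a responder to PD-1 blockade and the second as a non-responder, but every mouse whose section is described here had received only the isotype antibody 2A3, given into the peritoneum as 1 dose of 200 µg once the tumor measured 75 to 110 mm3, 48 hours before the tumor was taken. Tumors given anti-PD-1 were not analysed here. The labels number the sections as biological replicates and call the material bulk tumor, so each section mixes tumor, immune and stromal cells, and MC38 cells were implanted, not grown from the host's own tissue.

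A cell that enters the cycle first loads the MCM helicase onto replication origins with the help of Cdc6 and Cdt1, then fires those origins, spends deoxynucleotides made by ribonucleotide reductase and thymidylate synthase, and copies its DNA with the Pcna clamp. Genes of this phase are transcribed mainly through E2F factors, whereas the genes of G2 and mitosis (cyclins A and B with Cdk1, the Aurora and Polo kinases, kinetochore and spindle proteins, the anaphase promoting machinery) are transcribed later, largely through a promoter element called CHR that binds the DREAM and MuvB-FOXM1 complexes. In tumors, poorly oxygenated tissue far from vessels is known to hold fewer dividing cells.

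The sections held between 2710 and 3276 spots under tissue and between 82594649 and 146460975 UMIs (unique molecular identifiers, each counting 1 RNA molecule), and the median spot held 31158 to 41740 UMIs. A spot covers several cells. At this depth the median spot held 49 to 66 UMIs of the replication genes and 69 to 86 UMIs of the mitosis genes, and the share of spots with at least 1 UMI of a given gene ran from 24.97% (Ung in CC075F1 replicate 2) to 99.6% (Pcna, Top2a and Birc5 in CC080F1 replicate 1). CC075F1 replicate 2 stood apart. It was the deepest section, held 57 spots rich in skin, muscle or fat genes where the others held at most 2, and its normalization factor (0.745, against 1.07 to 1.16) was the lowest. Of the markers listed for the tumor cells, Shisal2b accounted for 123 to 267 of the 123 to 268 CPM summed over that list, so the keratins Krt7, Krt8, Krt18 and Krt19 and Epcam were close to 0 in these colon carcinoma sections.

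Since the genes were examined together, the sequence upstream of their starts was read first. RefSeq (GRCm38.p6) gave a window from 250 bases before to 50 bases after the start for 34 of the 40 genes. Tpx2, Ccna2, Gins2, Ccne2, Mcm4 and Aurkb had none. An E2F site, searched on both strands as TTTCCCGC, TTTCGCGC, TTTGCCGC or TTTGGCGC, was found for 6 of 15 replication genes (Cdc6, Cdt1, Mcm3, Mcm5, Mcm6 and Mcm7) and for 1 of 19 mitosis genes (Cdk1), against 2.26% of all 32851 windows. The CHR, searched on both strands as TTTGAA, was found for 14 of 19 mitosis genes and for 2 of 15 replication genes (Mcm2 and Cdc45), against 17.9% of all windows. The CCAAT box, often found beside a CHR and searched on both strands as CCAAT, was found for 17 of the 19 and 10 of the 15, against 37.4% of windows. A gene with more than 1 window, such as Mcm7, counted if any of them matched. The shares of all windows are per window, not per gene. A match is a string of letters, not a measured binding site. The last 160 bases before the start are shown for Mcm5 and Mcm6, replication genes with E2F matches, for Mki67, Top2a and Kif11, mitosis genes with CHR matches, and for Nusap1, a mitosis gene with none of the 3 motifs, all read 5′ to 3′ on the gene's own strand, with E2F and CHR matches in capitals.
Mcm5: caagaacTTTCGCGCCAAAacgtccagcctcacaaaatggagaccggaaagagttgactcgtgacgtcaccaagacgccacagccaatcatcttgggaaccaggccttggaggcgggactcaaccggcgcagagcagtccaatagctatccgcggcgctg
Mcm6: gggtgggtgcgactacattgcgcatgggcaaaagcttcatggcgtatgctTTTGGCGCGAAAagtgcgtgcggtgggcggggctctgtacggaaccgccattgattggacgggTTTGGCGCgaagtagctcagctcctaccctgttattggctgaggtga
Mki67: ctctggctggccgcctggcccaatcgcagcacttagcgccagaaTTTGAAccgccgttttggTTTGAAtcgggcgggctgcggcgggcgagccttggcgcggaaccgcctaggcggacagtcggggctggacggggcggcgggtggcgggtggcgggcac
Top2a: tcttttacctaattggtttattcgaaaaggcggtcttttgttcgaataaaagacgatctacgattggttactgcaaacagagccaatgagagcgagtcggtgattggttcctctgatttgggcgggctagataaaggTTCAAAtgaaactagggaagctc
Kif11: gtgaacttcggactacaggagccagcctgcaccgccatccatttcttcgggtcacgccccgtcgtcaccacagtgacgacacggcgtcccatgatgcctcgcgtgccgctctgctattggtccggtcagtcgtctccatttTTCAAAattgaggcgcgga
Nusap1: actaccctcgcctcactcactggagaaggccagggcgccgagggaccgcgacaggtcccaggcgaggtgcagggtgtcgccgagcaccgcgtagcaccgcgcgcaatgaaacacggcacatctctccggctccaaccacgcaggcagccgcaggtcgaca
These windows lie at chr8:75109349-75109508 (plus strand) for Mcm5, chr1:128359706-128359865 (minus strand) for Mcm6, chr7:135716380-135716539 (minus strand) for Mki67, chr11:99024190-99024349 (minus strand) for Top2a, chr19:37376222-37376381 (plus strand) for Kif11 and chr2:119618138-119618297 (plus strand) for Nusap1. In Mcm5 a pair of E2F forms on opposite strands overlap, and the same arrangement stands in Mcm6 beside a separate E2F match nearer the start. Mki67 carries the CHR letters at 2 places.

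The first question was whether tumors of the responder and the non-responder host differed in these genes. No difference was detected: 0 of the 40 genes passed edgeR's quasi-likelihood test on UMIs summed per section (Benjamini-Hochberg adjusted p under 0.05), against 0.0899% of all 15572 genes tested. By edgeR 0 of the 40 had an unadjusted p under 0.05, against 5.43% of all genes, and DESeq2's Wald test called 0 of the 40 and 1.25% of all genes. Values are given as TMM-scaled CPM, UMIs scaled to a common section total (CPM) after that total has been adjusted by a factor that aligns most genes between sections. The median log2 fold change (CC075F1 over CC080F1) was -0.06 for the replication genes and -0.01 for the mitosis genes, beside -0.02 for all genes. The lowest section of each gene differed from its highest by 1.06 to 2.05 times, with a median of 1.26. The 2 sections of one host lay entirely above or below those of the other for 5 of 40 genes, where 34.5% of all genes tested were separated in this way. These were Ccne2 and the kinetochore motor Cenpe, lower in CC075F1, and Birc5, Ube2c and Nusap1, higher in CC075F1. Of the immune markers, T cell genes stood higher in CC075F1 (78.6 and 62.5 CPM summed over 8 genes, against 39.2 and 40.4), though 1 of the 8 passed the test, and the 8 pan-immune genes summed to 1429 and 1571 CPM against 836 and 1108. Their part in the levels of the 40 genes was not tested. In a spot, fewer cycling cells and less RNA per cycling cell cannot be told apart.

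**Figure D1:**
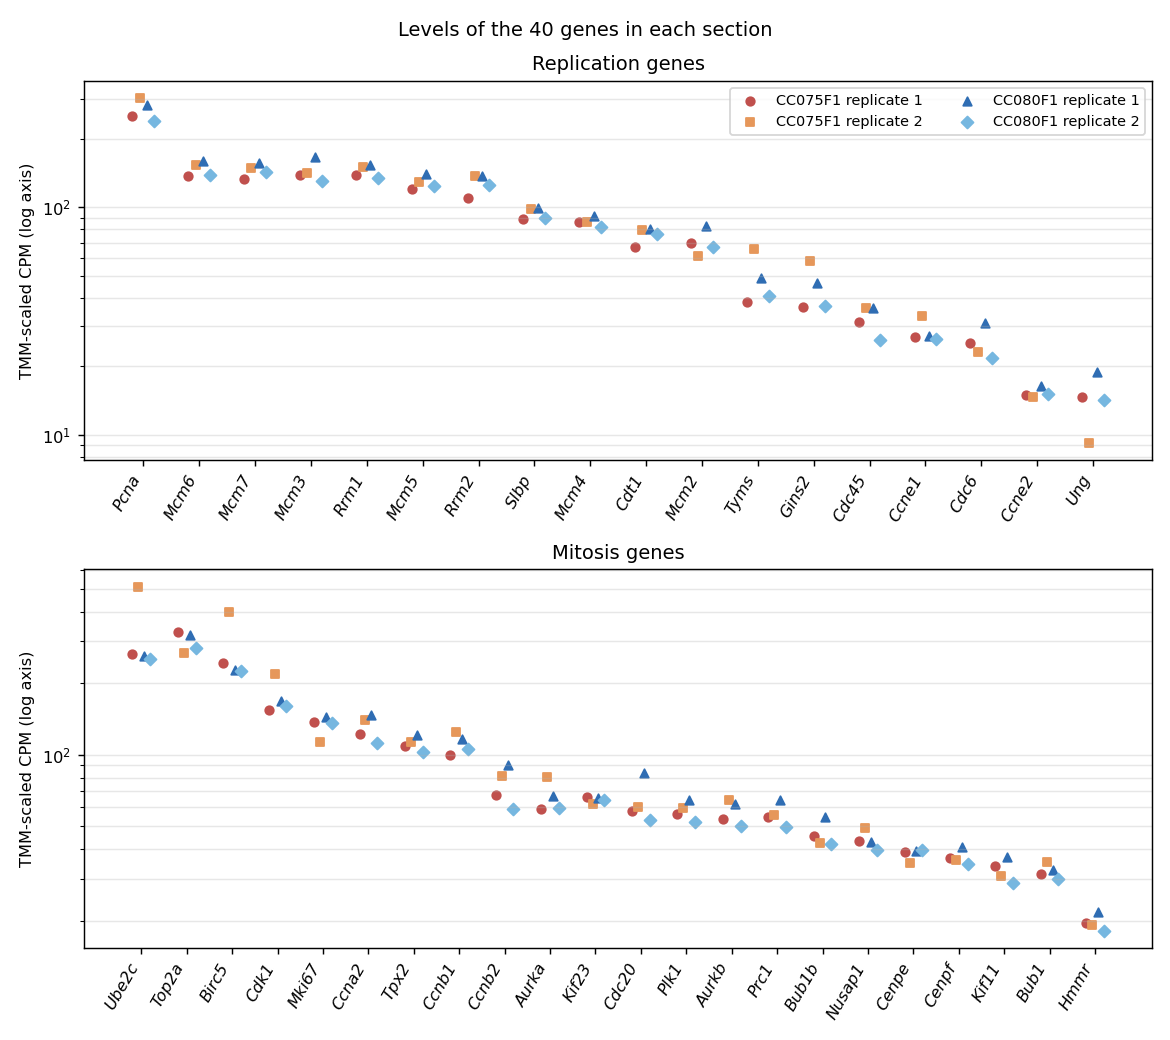
TMM-scaled CPM (log axis) of each replication gene (top) and each mitosis gene (bottom) in the 4 sections, 1 point per section, with genes ordered by their mean and not divided by transcript length. The 4 points of most genes lie close together, and CC075F1 replicate 2 stands highest for Ube2c (510) and Birc5 (399) and lowest for Ung (9.23).

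Among the genes of the replicative helicase, Mcm2 stood at 69.6 and 60.8 TMM-scaled CPM in CC075F1 replicates 1 and 2 and at 83.1 and 67.0 in CC080F1 replicates 1 and 2. Mcm6 stood at 137 and 153 against 159 and 138. Neither gene separated the hosts. Gins2, a subunit of the GINS complex that completes the active helicase, stood at 36.6 and 58.2 against 46.4 and 36.9 and had a log2 fold change of 0.19 (SE 0.26). Its highest value came from CC075F1 replicate 2 and its lowest from the other CC075F1 section, so the spread within that host exceeded the difference between hosts. Cdc6, which loads the helicase, stood at 25.3 and 23.1 against 31.1 and 21.8. Pcna, the clamp that holds the polymerase on DNA, stood at 251 and 302 against 282 and 240. Both genes overlapped between hosts.

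Rrm2, the regulatory subunit of ribonucleotide reductase, stood at 110 and 138 against 137 and 126. Tyms, which makes thymidylate, had the largest positive difference of the replication genes (log2 fold change 0.22, SE 0.27, edgeR adjusted p = 0.869). Its values of 38.4 and 65.9 in CC075F1 enclosed those of 49.0 and 40.6 in CC080F1. Ccne1 and Ccne2 encode the E cyclins that drive entry into S phase. Ccne1 stood at 26.8 and 33.4 against 27.3 and 26.4, and Ccne2 at 14.9 and 14.6 against 16.4 and 15.1, the last being 1 of the 5 genes whose hosts did not overlap. Slbp, which binds histone mRNA, stood at 89.3 and 98.2 against 99.6 and 89.3. Ung, which removes uracil from newly made DNA, had the largest difference of the replication genes: 14.6 and 9.23 in CC075F1 against 18.9 and 14.3 in CC080F1 (log2 fold change -0.48, SE 0.27, edgeR adjusted p = 0.830). Only CC075F1 replicate 2 lay well below the others, and the CC075F1 replicate 1 value fell between the 2 CC080F1 values.

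Of the mitosis genes, the 2 with the largest differences rested on CC075F1 replicate 2. Ube2c, the ubiquitin conjugating enzyme of the anaphase promoting complex, stood at 266 and 510 TMM-scaled CPM in CC075F1 and at 259 and 252 in CC080F1 (log2 fold change 0.60, SE 0.35, edgeR adjusted p = 0.830). Birc5, which encodes the chromosomal passenger survivin, stood at 244 and 399 against 227 and 224 (log2 fold change 0.51, SE 0.31, edgeR adjusted p = 0.830). In both genes CC075F1 replicate 1 lay close to the CC080F1 sections, so the difference was mostly that of 1 section. Over the 40 genes the ratio of CC075F1 replicate 2 to the mean of the other 3 sections fell with the length of the longest coding transcript (Spearman -0.41, n = 40), and over 14056 genes tested it did so too (Spearman -0.55), so transcript length moved with the level of that section, and its part in the values of Ube2c and Birc5 was not tested.

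Cdk1, the kinase that starts mitosis, stood at 154 and 219 in CC075F1 against 167 and 160 in CC080F1. Its partner Ccnb1 (cyclin B1) stood at 99.7 and 124 against 116 and 105. The highest value of both came from CC075F1 replicate 2. Aurka, the kinase of the spindle poles, stood at 58.9 and 80.7 against 66.8 and 59.7, and Plk1 (Polo-like kinase 1) at 56.2 and 59.3 against 64.2 and 51.9. Mki67, which encodes the proliferation antigen Ki-67, stood at 138 and 113 against 144 and 136 (log2 fold change -0.16, SE 0.22), and Top2a, the topoisomerase that disentangles sister DNA, at 327 and 268 against 317 and 281. For both genes CC075F1 replicate 2 was the lowest section.

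The kinetochore protein Cenpf stood at 36.6 and 35.9 against 40.7 and 34.7, and the checkpoint kinase Bub1b at 45.6 and 42.4 against 54.4 and 41.9. The spindle motor Kif11 stood at 34.0 and 30.8 against 37.0 and 28.7, and the spindle protein Hmmr at 19.5 and 19.2 against 21.8 and 18.1. Cdc20, which activates the anaphase promoting complex, had the most negative log2 fold change of the mitosis genes (-0.22, SE 0.25), with 57.6 and 60.04 against 83.6 and 53.0. In all 5 of these genes CC080F1 replicate 1 was the highest section and CC080F1 replicate 2 the lowest, so the CC080F1 pair enclosed the CC075F1 pair. CC080F1 replicate 1 was the highest section for 24 of the 40 genes and CC075F1 replicate 2 for 13.

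Summed over each list, the replication genes took 1530 and 1729 TMM-scaled CPM in CC075F1 against 1773 and 1532 in CC080F1. The mitosis genes took 2122 and 2597 against 2264 and 1993. Of the 30 other replication genes and 30 other mitosis genes listed, 0 passed the host comparison by edgeR, with median log2 fold changes of 0.01 and -0.01 and 0 at an unadjusted p under 0.05. The balance of the lists was then taken as the log2 ratio of replication to mitosis CPM, which needs no scaling between sections. It was -0.47 and -0.59 in CC075F1 and -0.35 and -0.38 in CC080F1, lower in both CC075F1 sections than in either CC080F1 section. The mitosis sum includes Ube2c (510 TMM-scaled CPM in CC075F1 replicate 2, against 252 to 266 in the other sections) and Birc5 (399 against 224 to 244). The part of Ube2c and Birc5 in the ratio was not tested. The difference in the ratio between hosts, -0.16, had p = 0.333 in a two-sided exact permutation test over the 4 sections, which is the smallest p that 2 against 2 allows.

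The second question was whether the genes followed hypoxia within a tumor. Hypoxia was scored per spot as the summed CPM of 10 genes induced by low oxygen (Car9, Vegfa, Slc2a1, Ndrg1, Bnip3, Egln3, Ankrd37, Adm, P4ha1 and Pdk1), none of which is among the 40. In each section the 25% of spots with the highest score (hypoxia-high) were compared with the 25% with the lowest (hypoxia-low), with the section as a block. The summed score was 1171 to 1627 CPM in the hypoxia-high spots and 139 to 187 CPM in the hypoxia-low spots.

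Nearly all of the 40 genes were lower in hypoxia-high spots. Of the 40 genes 37 fell by edgeR's test (all 18 replication genes and 19 of 22 mitosis genes) and 0 rose, where 17.4% of all 13932 genes tested fell. DESeq2's Wald test called 35 lower, with 12.8% of all genes, and 0 higher. The median log2 fold change was -0.57 for the replication genes (0.674 times the level of hypoxia-low spots) and -0.37 for the mitosis genes (0.772 times), beside 0.00 for all genes. Of the replication genes 17 of 18 and of the mitosis genes 20 of 22 were lower in hypoxia-high spots of all 4 sections. Under 12 alternatives that changed the scaling, the filter, the tool, the spots kept, the score, or left out a section, between 32 and 39 genes fell, none rose, and the medians stayed between -0.78 and -0.47 for replication and between -0.58 and -0.31 for mitosis. The 5 genes whose call was lost in some of them were Cdc45, Prc1, Tpx2, Top2a and Cdk1.

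**Figure D2:**
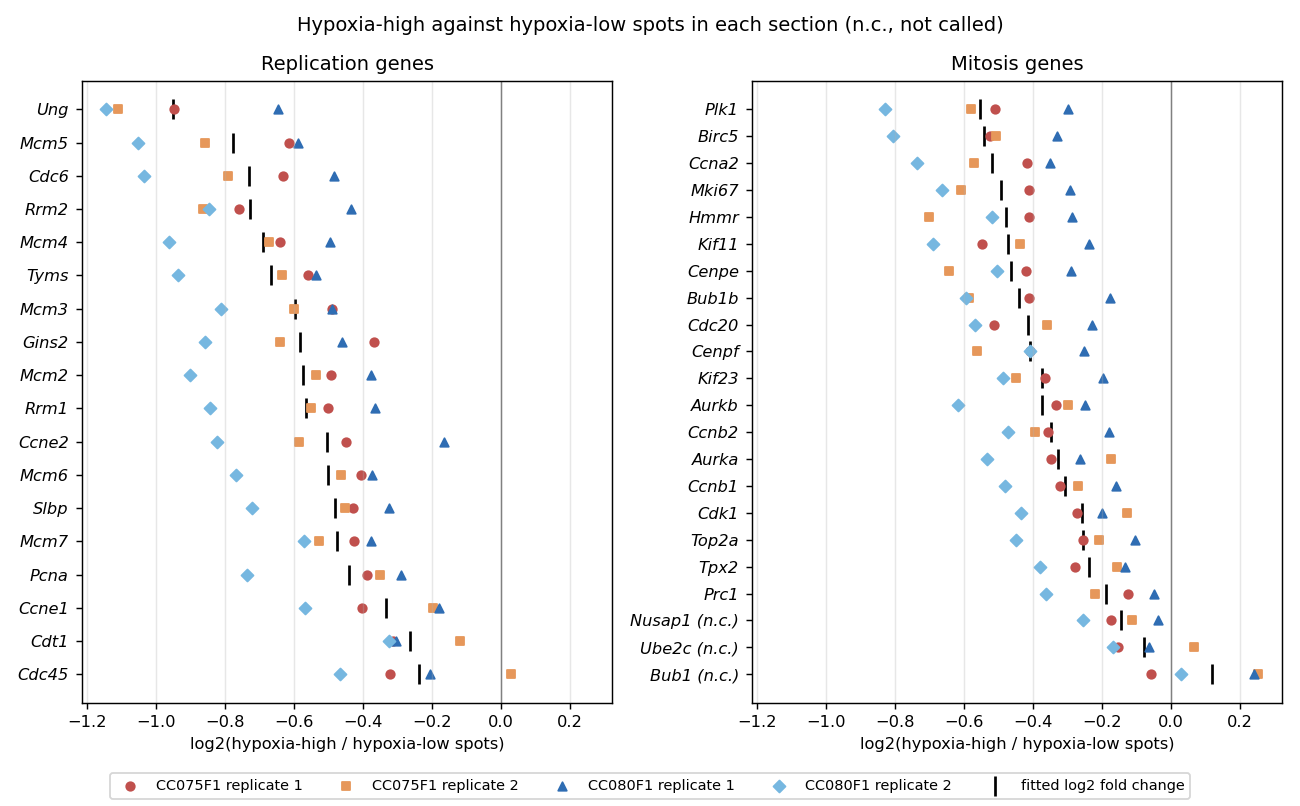
Log2 ratio of the level in hypoxia-high over hypoxia-low spots (horizontal axis) for each replication gene (left) and mitosis gene (right), with 1 point per section and a vertical tick for the fitted log2 fold change. Nearly all points lie left of 0, CC080F1 replicate 2 (diamonds) usually farthest, and the genes marked n.c. (Nusap1, Ube2c and Bub1) did not pass the test.

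Ung fell most. Its level in hypoxia-high and hypoxia-low spots was 9.40 and 18.1 TMM-scaled CPM in CC075F1 replicate 1, 5.49 and 11.8 in CC075F1 replicate 2, 12.9 and 20.1 in CC080F1 replicate 1, and 8.01 and 17.7 in CC080F1 replicate 2. This is a log2 fold change of -0.95 (SE 0.10, adjusted p = 0.000339 by edgeR). In each section the hypoxia-low spots held the higher value, and the log2 ratio was closest to 0 in CC080F1 replicate 1. The helicase gene Mcm5 went from 139 to 90.7, from 161 to 88.8, from 155 to 103 and from 156 to 75.5 from hypoxia-low to hypoxia-high spots of the same sections in the same order (log2 fold change -0.78, SE 0.08). All 4 high values lay below all 4 low values. The 8 genes of the helicase ran from -0.78 for Mcm5 to -0.24 for Cdc45 with a median of -0.58. Mcm2 had a log2 fold change of -0.57 (SE 0.08) and Mcm6 one of -0.50 (SE 0.07).

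The licensing factor Cdc6 went from 28.5 to 18.4, from 28.03 to 16.2, from 33.2 to 23.8 and from 27.3 to 13.3 TMM-scaled CPM (log2 fold change -0.73, SE 0.09), whereas Cdt1, its partner in licensing, fell only by 0.26 on the log2 scale (SE 0.06). The difference between the 2 partners was not tested. Rrm2 went from 131 to 77.2, from 167 to 91.6, from 146 to 108 and from 145 to 80.6 (log2 fold change -0.73, SE 0.08), and the other deoxynucleotide genes Tyms (-0.66, SE 0.07) and Rrm1 (-0.56, SE 0.08) fell as well. Every hypoxia-high value of Rrm2 lay below every hypoxia-low value. Smaller decreases were fitted for Ccne2 (-0.50, SE 0.10), Slbp (-0.48, SE 0.07), Pcna (-0.44, SE 0.08) and Ccne1 (-0.33, SE 0.07). Cdc45 was the one replication gene not lower in all 4 sections: its hypoxia-high and hypoxia-low values in CC075F1 replicate 2 were 34.7 and 34.0.

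Of the mitosis genes, Plk1 went from 62.4 to 43.9, from 68.2 to 45.6, from 67.8 to 55.2 and from 60.01 to 33.8 TMM-scaled CPM between hypoxia-low and hypoxia-high spots (log2 fold change -0.55, SE 0.08). Birc5 went from 275 to 191, from 442 to 311, from 239 to 190 and from 264 to 151 (-0.54, SE 0.08). The high level of Birc5 in CC075F1 replicate 2 was thus present in both classes of spots of that section, and its decrease there was of the size seen in CC075F1 replicate 1. Ccna2 (cyclin A2, which acts in S phase as well as before mitosis) went from 133 to 99.4, from 157 to 106, from 157 to 123 and from 131 to 78.5 (-0.52, SE 0.07), and Mki67 from 149 to 112, from 128 to 84.3, from 148 to 121 and from 154 to 97.1 (-0.49, SE 0.07). Every hypoxia-high value of Mki67 lay below every hypoxia-low value.

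Among the other mitosis genes, log2 fold changes near those of Mki67 were fitted for the spindle genes Hmmr (-0.48, SE 0.08) and Kif11 (-0.47, SE 0.08). Smaller ones were fitted for Cdc20 (-0.41, SE 0.07), Cenpf (-0.41, SE 0.06), Aurka (-0.33, SE 0.07), Ccnb1 (-0.31, SE 0.06), Cdk1 (-0.26, SE 0.06) and Top2a (-0.25, SE 0.07). Bub1, a kinase of the spindle checkpoint, Ube2c and the spindle protein Nusap1 did not pass the test. Bub1 had hypoxia-high and hypoxia-low values of 30.3 and 31.5, 37.3 and 31.3, 35.6 and 30.1, and 29.7 and 29.2 (log2 fold change 0.12, SE 0.07, edgeR adjusted p = 0.196), and was higher in hypoxia-high spots of 3 of 4 sections. Ube2c had a log2 fold change of -0.08 (SE 0.06, edgeR adjusted p = 0.340) and Nusap1 one of -0.14 (SE 0.05, adjusted p = 0.0704). Of the alternatives, scaling by library size alone, which shifted the median of all genes to -0.20, brought Ube2c (-0.29) and Nusap1 (-0.35) past the threshold, and ranking spots within strata of depth did so for Nusap1 (-0.15).

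The balance of the lists shifted with hypoxia in the same direction in each section. The log2 ratio of replication to mitosis CPM differed between hypoxia-high and hypoxia-low spots by -0.16, -0.26, -0.21 and -0.29 in CC075F1 replicates 1 and 2 and CC080F1 replicates 1 and 2. The mean of -0.23 had p = 0.125 in a two-sided exact sign-flip permutation test, the smallest that 4 pairs allow (0.188 after adjustment over hypoxia, immune content and edge). The hypoxia effect did not differ between hosts by the class by strain term of the same fit, which was called for 0 of the 40 genes and for 0.0287% of all genes. Given as the effect in CC075F1 minus that in CC080F1, it ran from -0.17 (Rrm2) to 0.19 (Cdc45), and 0 of the 40 had an unadjusted p under 0.05, against 4.27% of all genes. With 2 sections a host this says only that no difference was detectable.

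Other cell types and depth also differed between these spots. The 8 T cell markers all fell in hypoxia-high spots (their summed level was 19.8 to 51.6 CPM against 43.1 to 99.8), 5 of 6 endothelial markers fell (36.6 to 90.9 against 121 to 192 CPM), 3 of 8 pan-immune markers fell (799 to 1293 against 847 to 2045 CPM), and of 8 fibroblast markers 3 fell and 2 rose (686 to 2563 against 1612 to 2987 CPM). None of these markers was at 0 in either class of any section. Markers listed for the tumor cells summed to 108 to 214 CPM in hypoxia-high against 126 to 281 CPM in hypoxia-low spots, lower in each section. Of the 2 of them that passed the filter, none was called. The median hypoxia-high spot was deeper than the hypoxia-low one in CC075F1 replicate 2 (55845 against 33713 UMIs) and shallower in CC080F1 replicate 2 (27705 against 39400). The part of cell type content in the decrease was not tested. When spots were ranked within 10 strata of depth, 38 of the 40 genes fell.

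**Figure D3:**
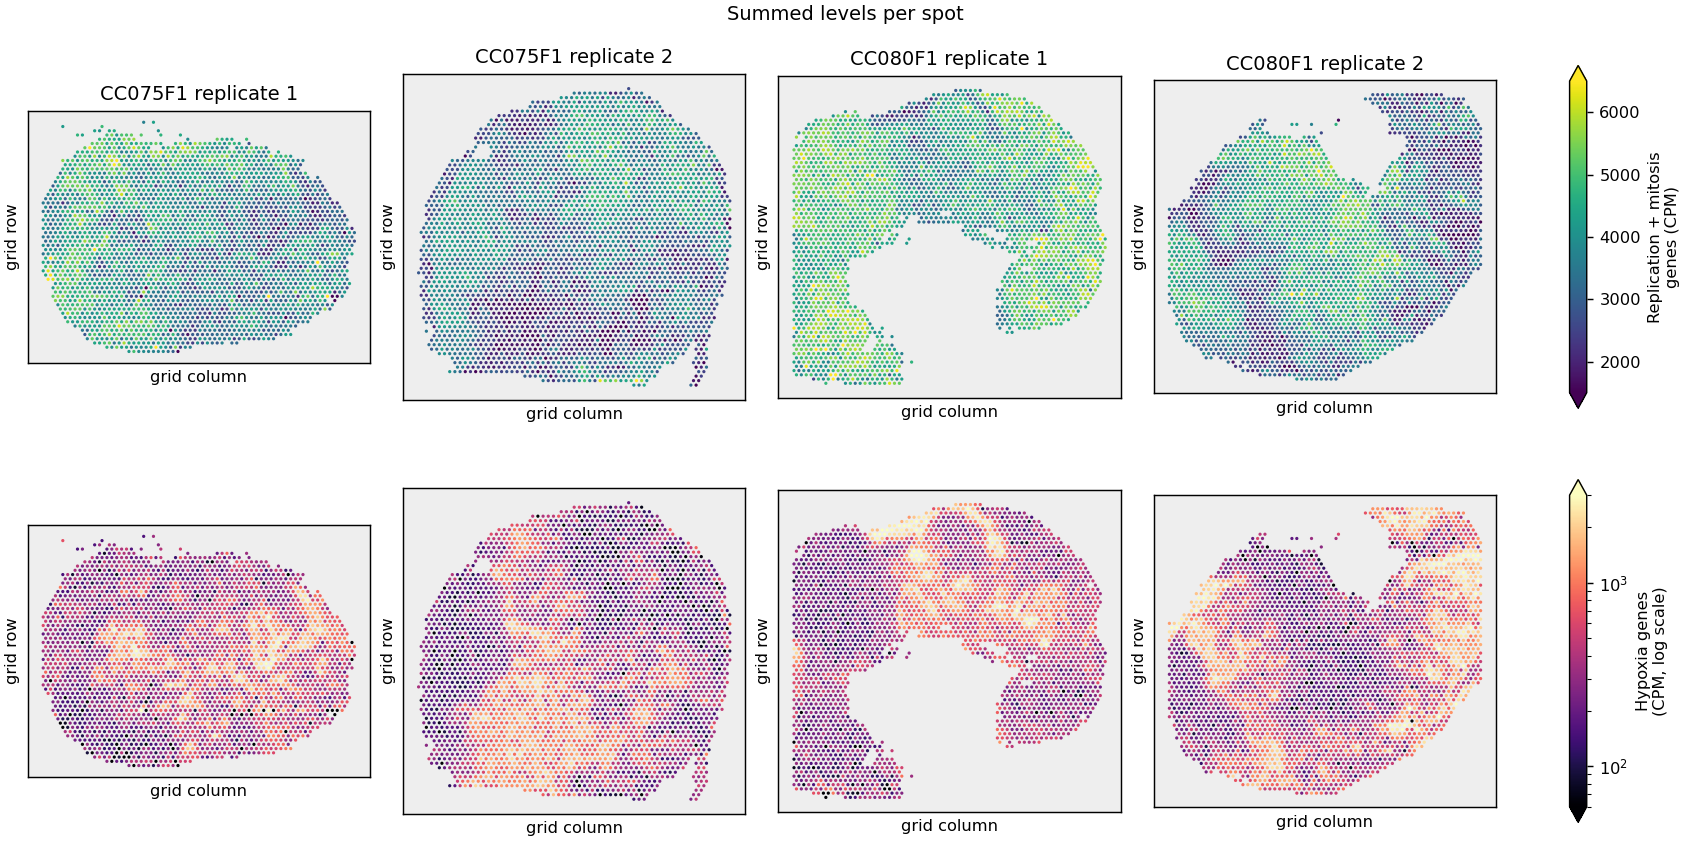
Each point is a spot at its grid position, coloured by the summed CPM of the 40 genes (top row) or by the summed CPM of the 10 hypoxia genes on a log scale (bottom row), 1 column per section. Many dark areas of the top row coincide with bright areas of the bottom row, as in the lower part of CC075F1 replicate 2 and along the right side of CC080F1 replicate 2 (Spearman with hypoxia -0.68 and -0.71 for the replication genes).

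Divided into 10 equal groups of spots by the hypoxia score, the summed replication CPM went from 2001 in the lowest to 1117 in the highest group of CC075F1 replicate 1, from 1717 to 772 in CC075F1 replicate 2, from 2303 to 1361 in CC080F1 replicate 1 and from 2078 to 857 in CC080F1 replicate 2. These are decreases of 44.2%, 55.0%, 40.9% and 58.7%. The mitosis CPM decreased over the same range by 35.6%, 43.1%, 24.0% and 45.9%. Both sums are plain CPM, without TMM scaling. By library size alone a typical gene was also lower in hypoxia-high than in hypoxia-low spots (median -0.20 on the log2 scale, 0.00 with TMM). In CC075F1 replicate 2 the normalization factor was 0.649 in hypoxia-high and 0.855 in hypoxia-low spots. The percentages can thus include a shift shared with other genes, and its part in them was not tested. Each step from one group to the next lowered the replication sum in 3 sections (9 of 9 steps), and 8 of 9 steps did so in CC080F1 replicate 1. In that section the sum stayed between 2194 and 2303 over the first 6 groups and then dropped (1950, 1783 and 1361 in the last 3), whereas in the other sections it fell from the first group on.

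**Figure D4:**
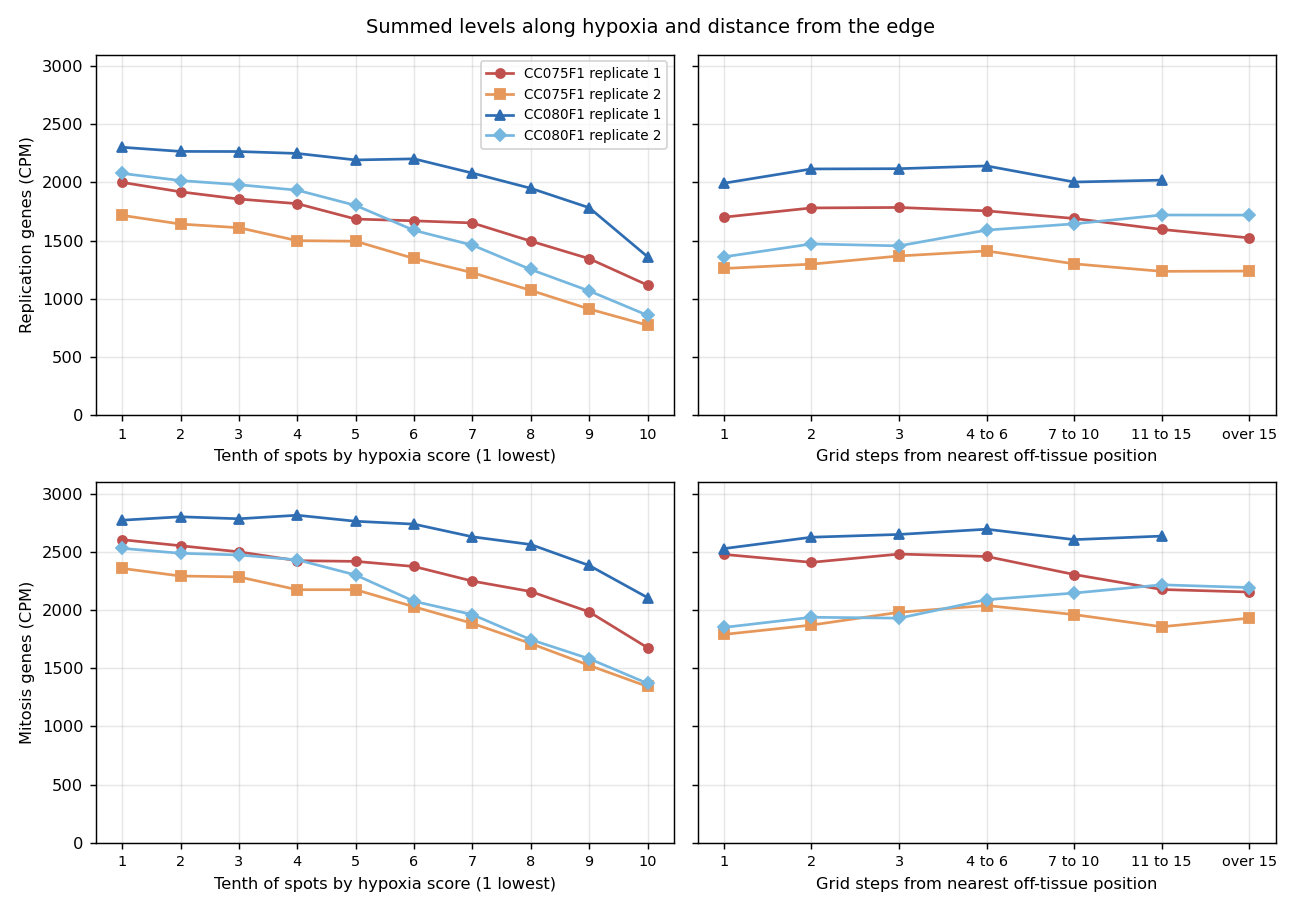
Summed CPM, without TMM scaling, of the replication genes (top) and mitosis genes (bottom) in each section, over 10 equal groups of spots by hypoxia score (left) and over distance from the nearest position off tissue in grid steps (right; a bin of 9 spots in CC080F1 replicate 1 is left out). The left curves descend in every section (replication by 40.9% to 58.7%), whereas the right curves differ in direction between sections (replication from 1360 CPM in the outermost to 1719 CPM in the innermost bin of CC080F1 replicate 2, and from 1702 to 1523 CPM in CC075F1 replicate 1).

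Genes of the same pathway that are not among the 40 were counted as well. Of 30 other replication genes 28 fell and 0 rose with hypoxia (median log2 fold change -0.52), led by Orc1, a subunit of the origin recognition complex (-0.85, SE 0.13), and Clspn, a mediator of the replication checkpoint (-0.72, SE 0.12). Of 30 other mitosis genes 26 fell and 0 rose (median -0.32), led by the kinase Melk (-0.58, SE 0.08) and the kinesin Kif20a (-0.58, SE 0.09). Of 12 cell cycle transcription factors 6 fell, with E2f7 (-0.64) and Mybl2 (-0.64) lowest, and Myc (0.35, SE 0.07) and Rb1 (0.21, SE 0.07, edgeR adjusted p = 0.0495) rose. Foxm1, which drives mitotic genes, fell (-0.39, SE 0.07), and E2f1 had a log2 fold change of -0.01 (SE 0.05, edgeR adjusted p = 0.902). Of 6 G1 cyclins and kinases Cdk2 (-0.41), Ccnd3 (-0.36) and Ccnd1 (-0.27) fell and Ccnd2 (0.30) rose.

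The inhibitors of the cycle mostly moved the other way. Of 11 tested (Cdkn2a did not pass the filter) 6 rose and 1 fell, where 18% of all genes tested rose and 17.4% fell. The 2 with the largest increase were Gadd45a (log2 fold change 1.98, SE 0.21), a stress-induced growth arrest gene, and Ccng2 (1.55, SE 0.16), an atypical cyclin linked to arrest. Cdkn1a, which encodes the kinase inhibitor p21, went from 13.2 to 27.3, from 15.3 to 45.7, from 15.6 to 36.6 and from 11.3 to 34.4 TMM-scaled CPM between hypoxia-low and hypoxia-high spots (1.37, SE 0.10, edgeR adjusted p = 4.83e-05). Every hypoxia-high value of Cdkn1a lay above every hypoxia-low value. The gene that fell was Cdkn2c (-0.45, SE 0.06), which encodes the INK4 inhibitor p18.

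The third question was the relation to immune content, scored as the summed CPM of 8 pan-immune genes (Ptprc, Cd52, Cd53, Coro1a, Laptm5, Lcp1, Cytip and Tyrobp). Between the 25% of spots with the highest score (immune-rich) and the 25% with the lowest (immune-poor), 0 of the 40 genes passed edgeR's test, where 4.91% of all 13972 genes did. By edgeR 9 of the 40 had an unadjusted p under 0.05, as had 30.3% of all genes, and DESeq2's Wald test called 1 (Ube2c) and 9.75% of all genes. The replication genes had a median log2 fold change of 0.09 and the mitosis genes one of -0.01, beside -0.03 for all genes. The 4 replication genes with the largest values were Ung (0.31, SE 0.11), Mcm5 (0.22, SE 0.09), Cdc6 (0.22, SE 0.08) and Tyms (0.20, SE 0.06, edgeR adjusted p = 0.103). Tyms was higher in the immune-rich spots of all 4 sections, by 0.20, 0.38, 0.04 and 0.16 on the log2 scale. In each of these 4 genes the largest difference was that of CC075F1 replicate 2, and CC080F1 replicate 1 gave values from -0.04 to 0.04.

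The mitosis genes with the largest values pointed down: Bub1 (-0.29, SE 0.10), Ube2c (-0.18, SE 0.05, edgeR adjusted p = 0.0812), Tpx2 (-0.11, SE 0.04) and Cdk1 (-0.10, SE 0.04). Each of these was lower in the immune-rich spots of all 4 sections. The log2 ratio of replication to mitosis CPM was higher in the immune-rich spots of every section, by 0.14, 0.24, 0.04 and 0.17 (mean 0.15, p = 0.125 in the exact sign-flip permutation test, 0.188 adjusted). Of the pathway genes beyond the 40, E2f2 alone passed the test (log2 fold change 0.48, edgeR adjusted p = 0.0233). Cdkn1a (-0.52, edgeR adjusted p = 0.0734), Myc (-0.28, adjusted p = 0.0784), Ccng2 (-0.66), Ccnd1 (0.04), E2f1 (-0.04) and Foxm1 (0.00) did not.

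Immune-rich spots were also less hypoxic: their hypoxia score was 239 to 504.2 CPM against 663 to 999 CPM in immune-poor spots. In each section they were shallower, most so in CC075F1 replicate 2 (median 29362 against 57493 UMIs), and higher in summed endothelial CPM (119 to 166 against 32.7 to 146). In CC075F1 replicate 2 they also held more fibroblast (2146 against 644 CPM) and muscle marker RNA (406 against 15.6 CPM). The part of depth and of these markers in the immune values was not tested. Ranking spots by the immune score within 10 strata of the hypoxia score, an alternative chosen after the first result was seen, gave another result. Then 16 of the 40 genes were lower in the immune-rich class (14 mitosis genes and 2 replication genes) and 0 higher, where 5.03% of all genes were lower, and the medians were -0.17 for mitosis and -0.10 for replication. Cdk1 had -0.20 (edgeR adjusted p = 0.0062), Ccnb1 -0.22 (adjusted p = 0.00591), Ube2c -0.21 and Kif23, a kinesin of cytokinesis, -0.20. The largest of the 16 was -0.26 (Bub1). Ranked by 8 T cell genes instead, 5 of the 40 (Ung 0.33, Cdc6 0.23, Hmmr 0.22, Mki67 0.17 and Gins2 0.16) were higher, where 7.48% of all genes were.

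The last question was the edge of the tumor. Spots within 3 grid steps of the nearest position off tissue (567 to 880 a section) were compared with all others. At the edge 0 of the 40 genes passed edgeR's test, where 1.1% of all 15089 genes did. By edgeR 6 of the 40 had an unadjusted p under 0.05, as had 18.3% of all genes, and DESeq2's Wald test called 0 of the 40 and 4.18% of all genes. The medians were -0.06 for the replication genes and -0.08 for the mitosis genes, beside -0.02 for all genes. The largest values of the replication list were those of Pcna (-0.19, SE 0.07), Gins2 (-0.17, SE 0.05), Slbp (-0.15, SE 0.08) and Mcm4 (-0.14, SE 0.07), and those of the mitosis list were Ccnb2 (-0.20, SE 0.07), Ccnb1 (-0.19, SE 0.08), Bub1b (-0.17, SE 0.06) and Bub1 (-0.16, SE 0.08). Gins2 was lower at the edge of all 4 sections, with log2 ratios from -0.20 to -0.12. The log2 ratio of the lists differed by -0.01, 0.07, 0.04 and -0.04 (p = 0.750, exact sign-flip permutation test). Of the other cell cycle genes listed (30 of replication, 30 of mitosis, 12 factors, 6 G1 genes and 12 inhibitors) 0 passed, among them Cdkn1a (0.34, SE 0.10), Ccng2 (-0.22, SE 0.11), Foxm1 (0.06), Myc (0.04), E2f1 (0.03) and Ccnd1 (0.02). The edge was shallower in every section (median 18036 to 30120 UMIs a spot against 33592 to 46146), and the muscle markers of CC075F1 replicate 2 lay there (956 against 14.2 CPM). Of the other markers, 3 of 8 for fibroblasts, 1 of 8 for T cells and 1 of 6 for tumor cells were called higher at the edge. Summed fibroblast CPM was higher there in CC075F1 replicate 2 (2807 against 879) and CC080F1 replicate 2 (3228 against 2496) and lower in the other sections. The part of depth and of these markers in the edge values was not tested.

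**Figure D5:**
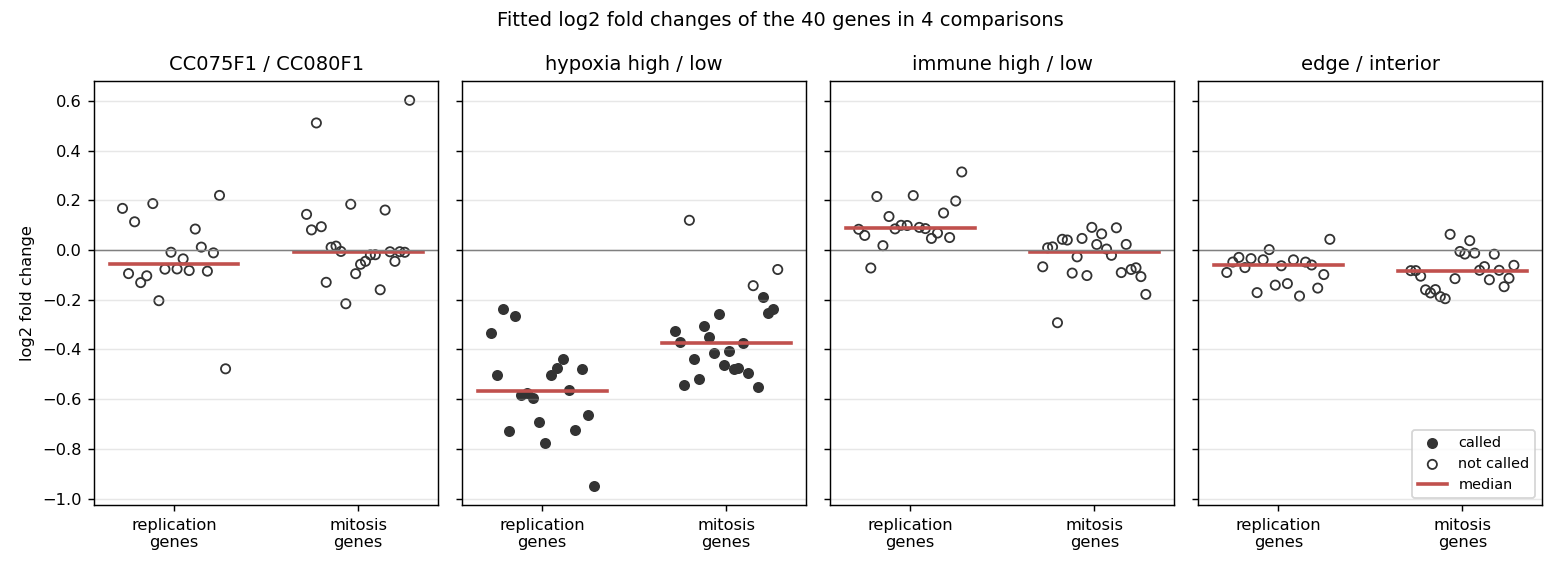
Fitted log2 fold changes of the 18 replication and 22 mitosis genes in the comparisons by host, hypoxia, immune content and edge, 1 point per gene, filled where the gene passed the test, with a bar at the median. Filled points appear in the hypoxia panel alone, where the medians are -0.57 and -0.37.

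Across the spots of a section the lists rose and fell together. The Spearman correlation of summed replication with summed mitosis CPM was 0.44, 0.61, 0.41 and 0.68 in CC075F1 replicates 1 and 2 and CC080F1 replicates 1 and 2. With each spot thinned to 10000 UMIs it was 0.32, 0.43, 0.23 and 0.50, and over tiles of 4 by 4 spots (171 to 210 a section) it was 0.83, 0.89, 0.78 and 0.94. The points share their section, their depth and a common total, and a small number of UMIs a spot lowers the value, so these are descriptions. Both lists were patchy: Moran's I over the 6 neighbouring spots (0 for no pattern, 1 for full likeness of neighbours) was 0.24, 0.55, 0.57 and 0.51 for replication and 0.22, 0.40, 0.36 and 0.59 for mitosis.

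S phase and mitosis genes were separable only weakly at this resolution. Over tiles, the mean correlation of a pair of genes was 0.39, 0.56, 0.42 and 0.61 within the replication list, 0.38, 0.52, 0.24 and 0.54 within the mitosis list and 0.34, 0.50, 0.28 and 0.55 between the lists. In both CC080F1 sections the pairs between lists were thus as alike as the pairs within the mitosis list or more so. The closest pair was Mcm3 with Mcm5, subunits of 1 complex (mean 0.75, lowest section 0.61), followed by Mcm3 with Mcm7 (0.72). The third closest crossed the lists, Mcm5 with Birc5 (0.72). Among the mitosis genes whose mean correlation was higher with the replication genes than with their own list were Birc5 (0.58 against 0.55), Ccna2 (0.55 against 0.51) and Mki67 (0.53 against 0.50). Bub1 was the least like any other (0.16 against 0.20).

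The correlation of the summed CPM with the hypoxia score across spots was -0.52, -0.68, -0.51 and -0.71 for replication and -0.43, -0.56, -0.37 and -0.61 for mitosis. Over tiles, the correlation was strongest for Mcm5 (mean -0.75), Mcm7 (-0.73), Rrm1 (-0.72) and Birc5 (-0.72), and weakest for Nusap1 (-0.29) and Bub1 (-0.06), both of which had not passed the test between hypoxia-high and hypoxia-low spots. Ube2c, the third such gene, stood at -0.45. Ung, which fell most between hypoxia-low and hypoxia-high spots and was found in few UMIs, stood at -0.52. The part of UMI number in these correlations was not tested. With the pan-immune score the replication sum correlated at 0.10, 0.41, 0.02 and 0.14 and the mitosis sum at -0.04, 0.26, -0.02 and 0.04, and the immune score itself correlated with hypoxia at -0.20, -0.59, -0.09 and -0.29. Correlations with distance from the edge were small and of either sign, from -0.15 to 0.16 for replication and from -0.19 to 0.14 for mitosis. With depth they ran from -0.17 to 0.21 and from -0.06 to 0.19.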

How the data were processed

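The authors aligned the reads to the mouse genome (10x mm10 reference, GRCm38) and counted them with Space Ranger, version 1.3.1 per the file headers, and their notes name Seurat 5.0.1. The deposited values are raw UMI counts per gene and spot under tissue, not normalized. Each section was mapped to its host by its label. In the host comparison p-values measure the spread between the 2 sections a host. In the hypoxia, immune and edge comparisons they measure the spread of the differences within a section over the 4 sections. In all of these fits edgeR draws the spread of each gene toward that of other genes. A printed SE is therefore not the scatter of that gene alone. UMIs were summed per section, or per class of spots and section, and fitted across all genes with edgeR 4.0.16 in R 4.3.3 (filterByExpr, TMM scaling, quasi-likelihood test, Benjamini-Hochberg threshold 0.05). DESeq2 1.42.0 was an alternative. Distances to the edge are in grid steps, an edge spot lying within 3. Spots with fewer than 10000 UMIs were left out where spots were thinned. On simulated counts with known changes the host fit recovered 93% of 4-fold and 32% of 2-fold changes with 14 false calls among 15376 genes, and the hypoxia fit recovered 100% of both with 23 false calls among 13699. The members and lists were chosen with earlier results of these data known. Genes named with values were a representative set of each role, the 3 of each list with the largest difference between hosts in each direction, the 4 of each list with the largest difference between spots and, of the other cell cycle genes, the 2 called with the largest change in each direction with 6 named in any case. Others were named after their values were seen. Gene positions came from GENCODE vM21 and promoter windows from RefSeq, both on GRCm38. Scipy 1.17.1 gave the Spearman correlations, and the exact permutation tests were enumerated with numpy 2.4.6.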

Additional observations from a re-analysis of the deposited data

Results flagged for a closer look

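For 4 mitosis genes the sections of the hosts moved in opposite directions with immune content (4 of the 40 genes, where 5.98% of all 13972 genes tested showed this pattern). The log2 ratio of immune-rich over immune-poor spots for Cdc20 was 0.16 and 0.23 in the CC075F1 sections, against -0.12 and -0.07 in those of CC080F1 (replicate 1 first), and the difference between the hosts was 0.29. For Plk1 the ratios were 0.03 and 0.26 against -0.14 and -0.06, a difference of 0.25. For Bub1b they were 0.04 and 0.19 against -0.03 and -0.03, a difference of 0.15. For Ccnb2 they were 0.04 and 0.01 against -0.07 and -0.09, a difference of 0.10. None of the 4 differences passed edgeR's interaction test (adjusted p = 0.960 for each), which called 0 of all genes and had an unadjusted p under 0.05 for 428 of them.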

How the results depend on the processing

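With 2 sections a host, even a 2-fold change was mostly missed by the host fit in simulation. By hypoxia, 32 to 39 of the 40 genes were lower under every alternative run (32 to 36 with 1 section left out). Scaling by library size alone split all calls by hypoxia into 937 higher and 4928 lower, against 2514 and 2422. The difference in the log2 ratio of replication to mitosis genes ranged from -0.22 to -0.11 by host, from -0.25 to -0.21 by hypoxia, from 0.12 to 0.18 by immune content and from -0.0053 to 0.032 by edge with 1 section left out. The mean correlation of the lists across spots was 0.37 with spots thinned to 10000 UMIs.

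By immune content 0 of the 40 genes were called, but 1 with DESeq2's Wald test, 0 to 1 with 1 section left out, 5 with the T cell list, 2 with spots ranked within depth strata and 16 with spots ranked within hypoxia strata, an alternative chosen after seeing the data. In that last setting Mcm4 (-0.14), Rrm2 (-0.12), Ccna2 (-0.16), Birc5 (-0.19), Plk1 (-0.18) and Kif11 (-0.16) changed sign and were called. The cause was not tested.

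By host, a fit with the replicate number as a block called 0 of the 40 genes, and 287 of all genes against 14. The labels do not say that a number marks a shared slide or batch, and 2 pairs are too few to tell whether the numbers pair the sections (same-numbered sections deviated together with a correlation of 0.39). Calls over all genes also moved by host to 480 without the filter, 194 with DESeq2, 40 by library size, 24 in deep spots and 11 to 207 with 1 section left out. By hypoxia they moved from 4936 to 2544 without CC080F1 replicate 2. By immune content they moved from 686 to 317 by library size, 1283 without the filter, 1362 with DESeq2, 1619 with the T cell list, 2236 in depth strata, 2354 in hypoxia strata and 0 to 1737 with 1 section left out. By edge they moved from 166 to 683 without the filter, 630 with DESeq2, 317 in deep spots, 71 at 5 steps, 313 for the outer boundary and 4 to 946 with 1 section left out.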
